A study of Mus musculus with 8 samples.

Results

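Mitochondrial fatty acid oxidation was described in the fasted liver through 10 genes that carry a fatty acid into the mitochondrion and through the first rounds of its breakdown. They were taken by name from the 45706 genes of the table: Cpt1a, Slc25a20 and Cpt2 of the carnitine shuttle, the acyl-CoA dehydrogenase genes Acadvl, Acadl and Acadm, Hadha and Hadhb of the trifunctional protein, Etfdh of electron transfer, and Decr1 of unsaturated chains. All 10 were found and all 10 passed the filter on low counts, which left 14629 genes. The RNA came from the liver of female C57BL/6J mice, 4 months old and fasted overnight, with 4 WT mice and 4 mice of genotype PLIN5 S155A and 1 library per mouse. S155A mice (SA/SA in the study) carry a whole-body CRISPR-Cas9 knock-in at the endogenous Plin5 locus, in which alanine takes the place of the serine named in S155A in perilipin 5, a lipid droplet protein, and trace to a founder whose edit was sequenced. The comparison asks whether phosphorylation at this serine is needed for the level of oxidation genes during fasting. Every mouse was fasted, so the data hold no fed liver and the fasting response itself was not measured here.

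During fasting the liver takes up fatty acids released by adipose tissue and oxidizes them to make energy and ketone bodies. A long-chain fatty acid is linked to carnitine at the outer mitochondrial membrane, exchanged across the inner membrane, linked to coenzyme A again and then shortened by a repeated cycle of dehydrogenation, hydration, a further dehydrogenation and cleavage. Many of the genes are known targets of PPARa, the nuclear receptor that switches liver metabolism to fat during fasting.

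None of the 10 genes passed an adjusted p of 0.05 between S155A and WT mice in edgeR's quasi-likelihood test, and 0 of 10 had an unadjusted p under 0.05. The adjusted p was at least 0.993 for each, in a comparison where 0% of all genes were called and 3.40% had an unadjusted p under 0.05. DESeq2 and limma-voom also called 0 of 10, with 0 of 10 at an unadjusted p under 0.05 in each. DESeq2 called 0.0411% of all genes and limma-voom 0%, and 4.07% and 3.19% of all genes had an unadjusted p under 0.05 in them. The log2 fold changes lay between -0.065 for Slc25a20 and 0.090 for Acadvl, and each was smaller than its own standard error. Their median was 0.036, beside -0.0050 over all genes tested, and 7 of 10 were above 0, where 48.8% of all genes were, and 3 of 10 below 0, where 51.2% were. In 0 of 10 genes did the WT and S155A mice separate without overlap, where 2.30% of all genes did.

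The 95% intervals show the size of change in these genes that the data allow. Each gene had between 6954 and 56614 counts in every library, and the standard errors of the log2 fold changes ran from 0.098 to 0.13, with a median of 0.11 beside 0.19 over all genes tested. The lower end of the 95% interval allowed a level at most 21.1% lower in S155A mice, for Etfdh, and the upper end a level at most 26.7% higher, for Cpt2. Changes within these intervals are not excluded with 4 mice per genotype. The plot of fold changes shows the intervals side by side.

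**Figure D1:**
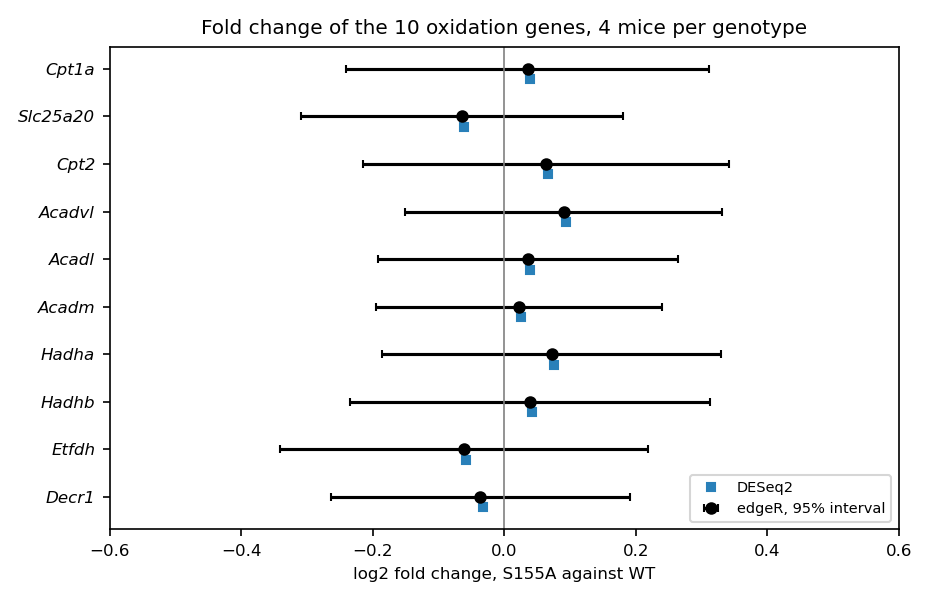
Log2 fold change of S155A against WT mice on the horizontal axis for each of the 10 genes, from edgeR with its 95% interval (black circles, bars) and from DESeq2 (blue squares), with 4 mice per genotype. All 10 intervals include 0, and the values lie between -0.065 and 0.090.

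Cpt1a (ENSMUSG00000024900, chromosome 19, 3322334 to 3385733, forward strand, GRCm38) encodes carnitine palmitoyltransferase of the outer membrane, the step that malonyl-CoA inhibits and that limits the entry of long-chain fatty acids. It was at 1056, 847, 726 and 922 CPM (the gene's counts scaled to library size, with TMM factors) in WT replicates 1 to 4 and at 851, 914, 929 and 946 CPM in S155A replicates 1 to 4. The S155A mice lay close together inside the wider range of the WT mice, at 910.0 ± 41.5 CPM (SD, n = 4) against 888 ± 138 CPM (SD, n = 4). The log2 fold change was 0.036 with a 95% interval from -0.24 to 0.31 (edgeR, adjusted p = 0.996). Without WT replicate 3, the lowest mouse for this gene, it was -0.049. By qPCR the study reported lower Cpt1a and Ppara in SA/SA than in WT liver of fasted females. It proposes the smaller number of sequenced samples as the likely reason that sequencing did not call these genes.

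Slc25a20 (ENSMUSG00000032602, chromosome 9, 108662088 to 108684641, forward strand) encodes the carrier that exchanges acylcarnitine for carnitine across the inner membrane. Its values were 227, 224, 235 and 215 CPM in WT replicates 1 to 4, and 237, 201, 184 and 240 CPM in the S155A mice in the same order. The WT mice differed by little and the S155A mice split, with replicates 2 and 3 below every WT mouse and replicates 1 and 4 above every WT mouse. The log2 fold change was -0.065 with a 95% interval from -0.31 to 0.18 (edgeR, adjusted p = 0.996), and 0.0065 without S155A replicate 3.

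Cpt2 (ENSMUSG00000028607, chromosome 4, 107903981 to 107923610, reverse strand) encodes the inner-membrane transferase that returns the chain to coenzyme A. WT mice were at 299, 345, 320 and 262 CPM and S155A mice at 332, 316, 270 and 364 CPM, replicates 1 to 4. The 2 genotypes overlapped over nearly their whole range. The log2 fold change was 0.063 with a 95% interval from -0.21 to 0.34 (edgeR, adjusted p = 0.996). It was -0.0046 without WT replicate 4 and -0.0032 without S155A replicate 4.

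The acyl-CoA dehydrogenases catalyse the first reaction of the cycle, and the 3 genes differ in the chain length that their enzymes prefer. Acadvl (ENSMUSG00000018574, chromosome 11, 70010183 to 70015411, reverse strand), for very long chains, was at 771, 873, 795 and 725 CPM in WT mice and at 887, 872, 727 and 882 CPM in S155A mice. Acadl (ENSMUSG00000026003, chromosome 1, 66830839 to 66863277, reverse strand), for long chains, was at 401, 360, 353 and 327 CPM in WT mice and at 376, 356, 342 and 404 CPM in S155A mice. Both genotypes spanned similar ranges for each of these genes, and S155A replicate 3 was the lowest S155A mouse in both. Acadm (ENSMUSG00000062908, chromosome 3, 153922357 to 153944632, reverse strand), for medium chains, was at 883, 731, 784 and 759 CPM in WT mice and at 791, 784, 786 and 844 CPM in S155A mice. Acadm varied least of the 10 genes, with a coefficient of variation of 5.99% over the 8 mice, where the other genes had up to 11.2% for Cpt2.

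The log2 fold changes were 0.090 for Acadvl (95% interval -0.15 to 0.33), 0.036 for Acadl (-0.19 to 0.26) and 0.022 for Acadm (-0.20 to 0.24), with adjusted p of 0.993, 0.996 and 0.996 from edgeR. Acadvl stayed above 0 whichever mouse was left out. Acadl was -0.0073 without WT replicate 4 and -0.0085 without S155A replicate 4, and Acadm was -0.012 without WT replicate 2 and -0.0030 without S155A replicate 4. With library size alone in place of TMM, Acadm was at -0.013. Acadvl overlaps Dvl2 and Mir324 on the opposite strand and Acadl overlaps small annotated genes on both strands. The libraries were stranded, but whether the counting used strand is not given in the sources used here.

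The trifunctional protein carries out the remaining 3 reactions of the cycle on long chains. Hadha encodes its alpha subunit, with the hydratase and the hydroxyacyl-CoA dehydrogenase, and Hadhb its beta subunit, the thiolase. Both lie on chromosome 5 in opposite directions, Hadha (ENSMUSG00000025745) from 30118304 to 30155162 on the reverse strand and Hadhb (ENSMUSG00000059447) from 30155248 to 30184593 on the forward strand. Only 85 bases separate their outermost annotated starts, and the RefSeq starts of the 2 genes are 273 bases apart. This stretch, and for comparison the 250 bases before the RefSeq start of Cpt1a, are shown because the 2 subunits of a single complex are transcribed outwards from it. Capitals mark GGGCGG (the GC box), AGGTCA (the hexamer bound by nuclear receptors such as PPARa) and CCAAT on either strand. The stretch from Hadha to Hadhb is at chr5:30155163-30155247 and that of Cpt1a at chr19:3323051-3323300, both on the forward strand of GRCm38.p6.
Hadha to Hadhb: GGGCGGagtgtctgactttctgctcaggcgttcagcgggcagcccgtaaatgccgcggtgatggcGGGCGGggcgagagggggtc
Cpt1a: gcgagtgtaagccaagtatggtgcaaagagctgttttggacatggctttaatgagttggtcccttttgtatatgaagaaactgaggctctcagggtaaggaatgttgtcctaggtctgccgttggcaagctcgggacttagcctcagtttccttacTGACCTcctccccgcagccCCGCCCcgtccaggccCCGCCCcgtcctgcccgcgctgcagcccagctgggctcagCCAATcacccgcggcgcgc

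The stretch shared by Hadha and Hadhb holds 2 GC boxes at a GC content of 69.4%, and the stretch before Cpt1a holds 2 GC boxes, 1 AGGTCA hexamer and 1 CCAAT. Over the RefSeq windows of 250 bases before to 50 bases after a start, searched on both strands, the GC box was in 7 of the 9 windows found for the 10 genes and in 35.7% of 32851 windows of all genes. The windows of Hadha and Hadhb share 228 bases. AGGTCA was in 3 of 9 (Cpt1a, Acadvl and Acadm) and in 16.3% of all windows. The DR1 element, formed by 2 AGGTCA hexamers 1 base apart and known as the site of PPARa, was in 0 of 9 and in 0.0396% of all, and in 0 of 9 and 0.381% with any base at position 4 of each hexamer. AGGTCA directly preceded by TNA was in 0 of 9 and 1.28%. The cyclic AMP response element, TGACG followed by TCA, was in 0 of 9 and 1.79%, and TGACG, which it contains, in 2 of 9 (Acadm and Etfdh) and 20.8%. The NRF1 core, GCGCA followed by TGCGC, was in 1 of 9 (Etfdh) and 0.971%. CCAAT was in 2 of 9 (Cpt1a and Etfdh) and 37.4%, TATAAA in 0 of 9 and 13.6%, and the E-box CACGTG in 0 of 9 and 7.15%. The 9 windows had a median GC content of 58.7%, against 52.7% for all. These counts describe the letters of the reference in short windows only.

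Hadha was at 588, 714, 707 and 622 CPM in WT mice and at 722, 716, 586 and 742 CPM in S155A mice. Hadhb was at 340, 400, 430 and 386 CPM in WT mice and at 397, 391.8, 340 and 470 CPM in S155A mice. For both subunits WT replicate 1 and S155A replicate 3 were the 2 lowest mice, and S155A replicate 4 was the highest. The log2 fold changes were 0.072 for Hadha (95% interval -0.19 to 0.33, adjusted p = 0.993) and 0.039 for Hadhb (-0.23 to 0.31, adjusted p = 0.996) from edgeR. Hadhb was at -0.016 without WT replicate 1 and at -0.047 without S155A replicate 4. Hadha overlaps Garem2 on the opposite strand and Hadhb overlaps Mir1960 on its own strand.

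The ratio of Hadha to Hadhb counts does not depend on library size. It was 1.73, 1.79, 1.64 and 1.61 in WT replicates 1 to 4 and 1.82, 1.83, 1.72 and 1.58 in S155A replicates 1 to 4. The genotypes overlapped, and the mean log2 ratio was 0.76 ± 0.068 in WT mice and 0.79 ± 0.098 in S155A mice (SD, n = 4 each). The difference of 0.036 was smaller than this spread (two-sided exact permutation test, p = 0.6, where the smallest p that 4 mice against 4 allow is 0.0286). It was 0.023 in the low and 0.049 in the high number range defined below.

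Etfdh (ENSMUSG00000027809, chromosome 3, 79603788 to 79629500, reverse strand) encodes the oxidoreductase that passes electrons from the acyl-CoA dehydrogenases, through the electron transfer flavoprotein, to ubiquinone. It was at 515, 415, 463 and 445 CPM in WT mice and at 466, 427, 361 and 507 CPM in S155A mice. S155A replicate 3 was the lowest mouse and WT replicate 1 the highest. The log2 fold change was -0.061 with a 95% interval from -0.34 to 0.22 (edgeR, adjusted p = 0.996). It was 0.0016 without WT replicate 1 and 0.025 without S155A replicate 3. Etfdh overlaps Gm37973 on its own strand and 4930579G24Rik on the other.

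Decr1 (ENSMUSG00000028223, chromosome 4, 15917240 to 15945507, reverse strand) encodes dienoyl-CoA reductase, which is needed to break down polyunsaturated chains. Its WT values of 427, 453, 417 and 424 CPM were close together, and its S155A values of 404, 422, 375 and 478 CPM reached below and above all of them. The log2 fold change was -0.036 with a 95% interval from -0.26 to 0.19 (edgeR, adjusted p = 0.996), and 0.015 without S155A replicate 3. Decr1 overlaps Mir6400 on its own strand. The plot of levels by mouse shows all 10 genes.

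**Figure D2:**
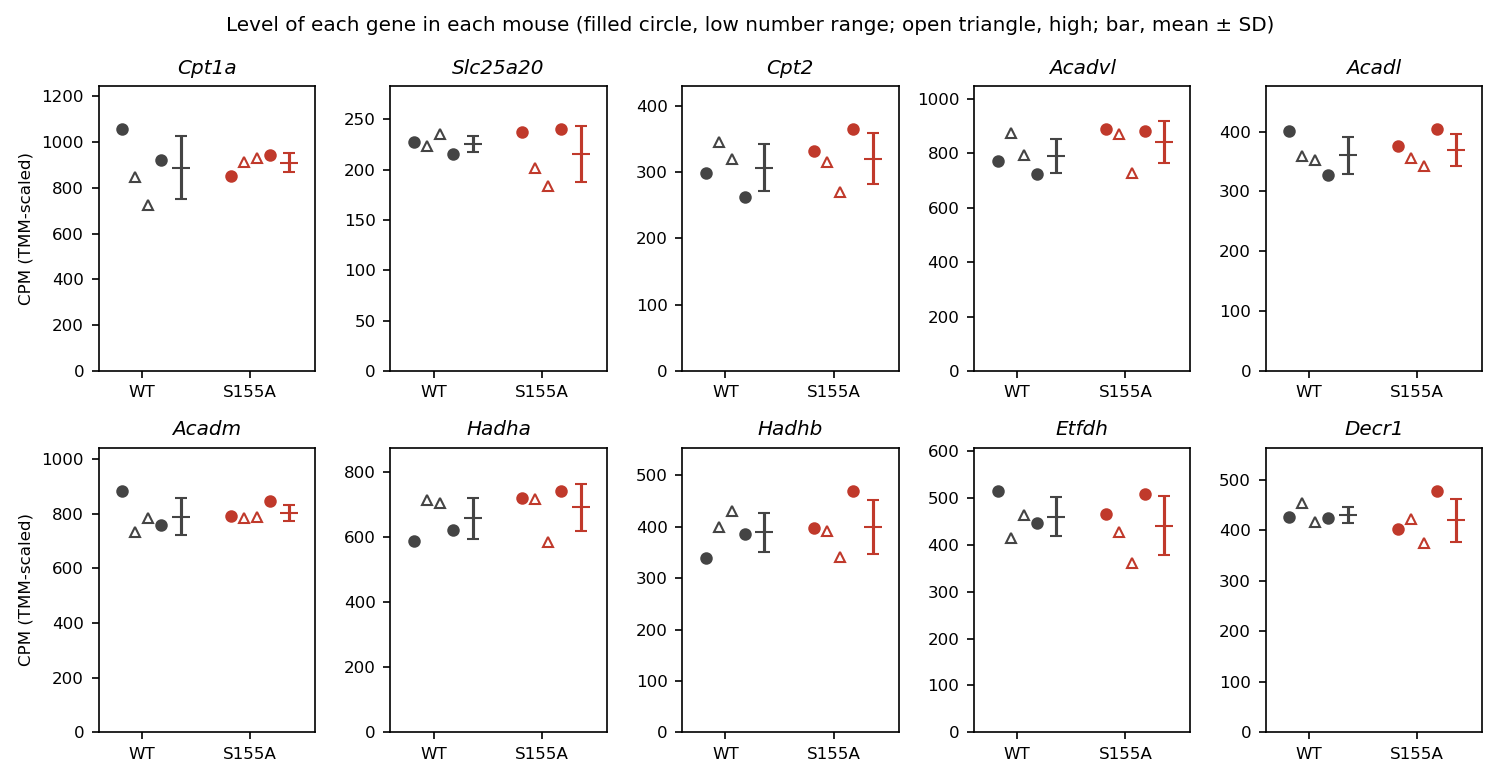
CPM after TMM scaling on the vertical axis, from 0, for each gene in each WT (grey) and S155A (red) mouse, with filled circles for the low and open triangles for the high number range and bars for the mean ± SD of 4 mice. WT and S155A mice overlap in all 10 genes, and Cpt1a spans 726 to 1056 CPM in WT mice and 851 to 946 CPM in S155A mice.

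The genes moved in the same direction most clearly in S155A replicates 3 and 4. Each gene's log2 CPM was centred on its mean over the 8 mice, and S155A replicate 4 was above the mean in 10 of 10 genes and was the highest mouse in 6. S155A replicate 3 was below the mean in all but Cpt1a and was the lowest mouse in 4. WT replicate 4 was above the mean in 2 genes, and the other 5 mice in 4 to 7 genes. The share of all genes on one side of the mean in a mouse was not computed. The mean of the 10 centred values was 0.15 in S155A replicate 4, -0.16 in S155A replicate 3 and between -0.076 and 0.040 in the 6 other mice. The 10 genes together took 0.468% of all counts in S155A replicate 3 and 0.599% in S155A replicate 4, with the other mice in between. Without S155A replicate 3 the log2 fold change was above 0 in 10 of 10 genes (median 0.052), and without S155A replicate 4 in 3 of 10 (median -0.0058). In bulk liver, fewer cells of a type and less RNA per cell cannot be told apart.

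S155A replicate 3 also stood apart in its cell markers. The summed level of 10 lymphocyte markers was 2061 CPM in this mouse and between 19.4 and 46.0 CPM in the 7 others. Of the 10 markers, 0 were absent from all mice, and 10 of 10 had a log2 fold change above 0, where 48.8% of all genes did. Ighm was at 1164 CPM, Igkc, an immunoglobulin light chain gene, at 806 CPM and Jchain at 73.8 CPM in this mouse. They were at most at 18.1, 21.2 and 2.07 CPM in the others. Ighm and Igkc thus made up most of the sum. The remaining lymphocyte markers were each at most 5.97 CPM in this mouse. It was their highest mouse except for Cd8a, at 0.634 CPM against 0.982 CPM in S155A replicate 1. The 8 hepatocyte markers, led by Alb, summed to 138659 CPM in it and to between 97629 and 132128 CPM in the others, so hepatocyte transcripts were abundant in every library. The labels give hepatocytes as the cell type, but the RNA was extracted from liver tissue, and markers of other liver cells were present in every mouse. The log2 fold change was above 0 in 7 of 7 Kupffer cell and macrophage markers (median 0.18), where 48.8% of all genes were. It was below 0 in 6 of 6 stellate cell markers (median -0.42) and 5 of 5 red blood cell markers (median -0.54), where 51.2% of all genes were. Endothelial markers were mixed, with 2 of 5 above 0 and 3 below (median -0.093). In the Kupffer cell, stellate, red blood cell and endothelial lists, 0 markers passed an adjusted p of 0.05 in edgeR (0% of all genes). An unadjusted p under 0.05 was found for 0 (3.40%), and 0 separated without overlap (2.30%). In the lymphocyte list 3 of 10 markers, Ighm, Igkc and Jchain, had an unadjusted p under 0.05 in edgeR, and 0 passed after adjustment. Cela2a, the only pancreatic acinar marker tested, was also under the unadjusted threshold, with a log2 fold change of -3.27, and did not pass after adjustment. Other mice stood apart too: pancreatic acinar markers summed to 30.2 CPM in WT replicate 2 and to at most 0.612 CPM in the others, and red blood cell markers ran from 411 CPM in WT replicate 1 to 2647 CPM in WT replicate 4. Markers of skeletal muscle summed to at most 0.189 CPM in any mouse, and 2 of the 5 were at 0 in every mouse. The part of these other cells in the level of the oxidation genes was not tested.

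Cpt1a departed most from the mean profile of the 10 genes. Its root mean square difference from the mean centred profile was 0.17 on the log2 scale, while Decr1 at 0.057 and Acadl at 0.059 were the closest and Hadhb at 0.11 the next farthest after Cpt1a. Its highest mouse was WT replicate 1 and its lowest WT replicate 3, which were at 0.24 and -0.30 relative to its mean, where the mean profile was at 0.026 and -0.0032. Outside the listed genes, Ankrd40 (0.033), Emc4 (0.041), H3f3a (0.041) and Ugt2b36 (0.042) were among the 5 closest to the mean profile of 7358 genes with at least 10 CPM, where the median gene was at 0.19.

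**Figure D3:**
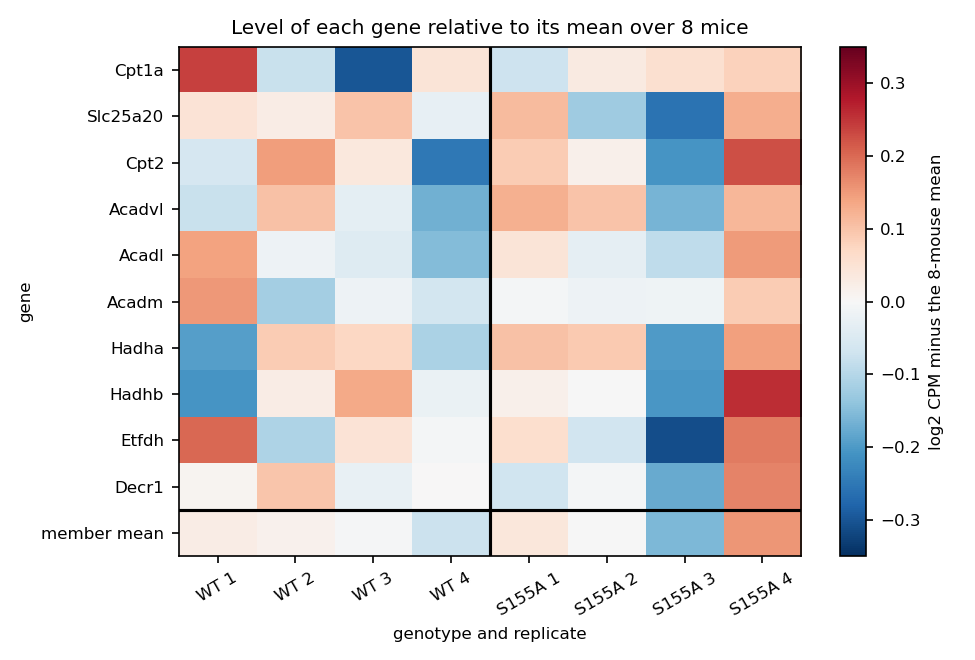
Log2 CPM of each gene (rows) in each mouse (columns, WT to the left of the line) minus its mean over the 8 mice, in colour, with the mean of the 10 genes in the bottom row. The bottom row is highest in S155A replicate 4 (0.15) and lowest in S155A replicate 3 (-0.16), and Cpt1a in the top row departs from it most.

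The variation between mice ranged from low to near the middle for genes of this abundance. The coefficient of variation over 8 mice was between 5.99% and 11.2%. The biological coefficient of variation estimated by edgeR was between 13.3% and 15.5%, which placed Acadm at the 5.47 percentile and Cpt2 at the 48.8 percentile of the 200 genes nearest to each in level. All 10 genes were below the middle of such genes. In 7 of 10 genes the SD was larger in S155A than in WT mice, and in Cpt1a, Acadl and Acadm it was larger in WT mice.

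The labels give each mouse a number, and the numbers form a low range (89, 90, 118 and 123) and a high range (830, 831, 856 and 869), each with 2 WT and 2 S155A mice. What the ranges stand for is not given in the labels. In the low range 8 of 10 genes were higher in S155A mice, where 49.4% of all genes were, with a median difference in mean log2 CPM of 0.11. In the high range 8 of 10 were lower, where 51.1% of all genes were, with a median of -0.13. The same 8 genes made up both counts, a pattern that 27.7% of all genes showed. Cpt2 differed by 0.31 and -0.19, Slc25a20 by 0.11 and -0.25, Hadha by 0.28 and -0.13, and Hadhb by 0.25 and -0.18 in the low and high range.

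Acadvl, Acadl, Etfdh and Decr1 differed by 0.24, 0.10, 0.023 and 0.046 in the low range and by -0.065, -0.029, -0.16 and -0.13 in the high range. Cpt1a went the other way, at -0.14 in the low and 0.23 in the high range, and Acadm differed by -0.0023 and 0.053. The difference between the ranges, tested as an interaction in edgeR, called 0 of 10 genes, with adjusted p from 0.408 to 0.939. Only Cpt2 was under an unadjusted threshold of 0.05, 1 of 10 (interaction -0.49, standard error 0.20), where 11.1% of all genes were and 0% passed after adjustment. The interaction was below 0 in 8 of 10 genes, where 50.9% of all genes were.  Some lists of cell markers also changed with the number range, and others kept their direction. The median difference of the 7 Kupffer cell and macrophage markers was -0.49 in the low range, with 1 of 7 higher in S155A mice, and 0.86 in the high range, with 7 of 7 higher. The 8 hepatocyte markers had medians of -0.12 (2 of 8 higher) and 0.31 (7 of 8 higher). The 10 lymphocyte markers had 0.043 (5 of 10 higher) and 1.15 (10 of 10 higher), and the 5 endothelial markers -0.17 (1 of 5) and 0.041 (3 of 5). Stellate cell markers had medians below 0 in both ranges, at -0.13 (1 of 6 higher) and -0.63 (0 of 6). So did red blood cell markers, at -0.051 (0 of 5) and -0.52 (0 of 5). The part of these markers in the result was not tested. Each mean within a range rests on 2 mice, and both S155A replicates 3 and 4 weigh on it, the first in the high and the second in the low range.

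**Figure D4:**
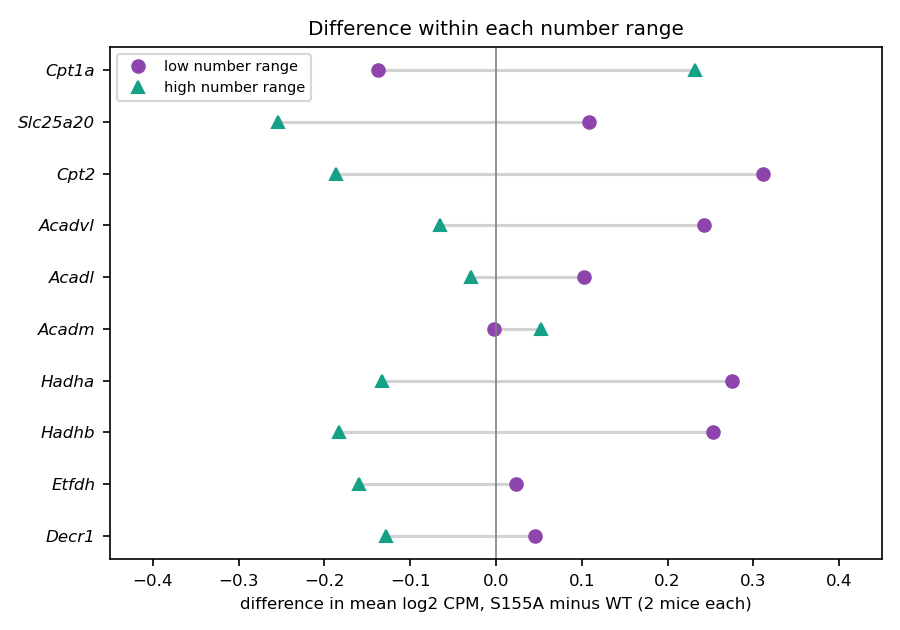
Difference in mean log2 CPM, S155A minus WT, on the horizontal axis for each gene in the low (purple circles) and the high (green triangles) number range, with 2 mice of each genotype in each and no error bar. In 8 of 10 genes the low range lies above 0 and the high range below it, and Cpt1a lies at -0.14 and 0.23.

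Levels were compared between genes per length, as counts divided by the summed exon length in GENCODE M21 and by the TMM-scaled library size. The same factor was then applied to every library, so the library sums were not made equal. Acadvl was highest at 704 ± 60.5 (SD over 8 mice), followed by Acadm at 471 ± 28.2, Acadl at 422 ± 31.3, Cpt2 at 304 ± 34.1, Cpt1a at 273 ± 28.8, Decr1 at 254 ± 18.4, Hadha at 179 ± 17.2, Etfdh at 139 ± 15.5, Hadhb at 139 ± 15.1 and Slc25a20 at 105 ± 9.36. With this length the acyl-CoA dehydrogenase genes led and the carnitine carrier came last. The ranges of neighbours did not overlap between Acadvl and Acadm, Acadl and Cpt2, Decr1 and Hadha, or Hadhb and Slc25a20. Cpt2 was above Cpt1a in 5 of 8 mice, Cpt1a above Decr1 in 6 and Etfdh above Hadhb in 3, so these neighbours did not differ beyond their spread. Acadm was above Acadl in 8 of 8 mice although their ranges overlapped, and Hadha above Etfdh in 7. Every one of the 10 ranked within the 976 most abundant genes per length. The order depends on the length used. With the longest annotated transcript, Acadm (736) came before Acadvl (714), and Cpt1a (395) moved from place 5 to place 3, ahead of Acadl (361). Cpt2 (251) moved from place 4 to place 7, and Hadha (318) came before Decr1 (272).

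The wider pathway was described with 35 further genes and 10 regulators, all of which passed the filter on low counts. Of the 35 pathway genes, 0 passed an adjusted p of 0.05 in edgeR (0% of all genes), 0 rose and 0 fell. An unadjusted p under 0.05 was found for 0 of them and for 3.40% of all genes. The median log2 fold change of the 35 genes was 0.079, beside -0.0050 over all genes, with 26 of 35 above 0, where 48.8% of all genes were. DESeq2 and limma-voom also called 0, where they called 0.0411% and 0% of all genes. The WT and S155A mice overlapped in all 45 of the pathway and regulator genes, while 2.30% of all genes separated without overlap.

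The entry of fatty acids is further set by carnitine supply and by malonyl-CoA. Cpt1b, the muscle form of the outer transferase, was at 15.5 ± 3.07 CPM in WT mice and 18.7 ± 9.92 CPM in S155A mice (SD, n = 4 each), a small fraction of Cpt1a. Its S155A mice ran from 8.58 to 30.02 CPM and its WT mice from 11.6 to 18.8 CPM. The difference in mean log2 CPM of Cpt1b was 1.03 in the low and -0.78 in the high range (interaction adjusted p = 0.21 from edgeR), and its log2 fold change was 0.28, or -0.048 without S155A replicate 4. Crat, carnitine acetyltransferase, differed by 0.27 and -0.55 (interaction adjusted p = 0.281 from edgeR), and Slc22a5, the carnitine importer of the plasma membrane, by 0.16 and -0.34 (adjusted p = 0.384 from edgeR). The interaction had an unadjusted p under 0.05 in 8 of the 35 pathway genes, where 11.1% of all genes did, and 0 passed after adjustment. It was below 0 for Cpt1b, Crat, Slc22a5 and Slc52a2 and above 0 for Acad8, Dmgdh, Mmut and Mmab. Acacb, the acetyl-CoA carboxylase that makes malonyl-CoA at the mitochondrion, had a log2 fold change of 0.30 with a 95% interval from -0.028 to 0.63 (adjusted p = 0.993). Mlycd, which removes malonyl-CoA, was at 164 ± 15.1 CPM in WT and 166 ± 7.28 CPM in S155A mice. All 6 genes of this group were higher in S155A mice in the low range, where 49.4% of all genes were. In the high range 5 of 6 were lower, where 51.1% of all genes were. The 6 include Cpt1c, near the floor at 0.553 CPM in WT and 0.595 CPM in S155A mice (means).

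The short-chain steps of the cycle are carried out by Acads, Echs1, Hadh and Acaa2. The log2 fold changes were 0.11 for Acads, 0.12 for Echs1, -0.030 for Hadh and 0.024 for Acaa2, with 95% intervals that together reached from -0.25 to 0.44. Acaa2, the thiolase of medium chains, had the highest level in CPM among these 4 genes in each genotype, at 1319 ± 148 CPM in WT and 1341 ± 71.9 CPM in S155A mice (SD, n = 4 each). Eci1 and Eci2, isomerases that move double bonds, had log2 fold changes of 0.072 and -0.036. Etfa and Etfb, the subunits of the flavoprotein that gives electrons to the product of Etfdh, had log2 fold changes of 0.10 (95% interval -0.15 to 0.36) and 0.17 (-0.11 to 0.44). Acad11, a dehydrogenase of very long chains, had a log2 fold change of -0.12, and -0.048 without S155A replicate 3.

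The other dehydrogenases that feed the flavoprotein showed 5 of 6 log2 fold changes above 0 (median 0.15). In the flavin supply genes 2 of 4 were above 0 (median 0.0077), where 48.8% of all genes were. The flavoprotein-feeding genes were higher in S155A mice in 1 of 6 in the low range (median difference -0.11) and in 6 of 6 in the high range (0.40), opposite in sign to the carnitine and malonyl-CoA genes. Of the 14629 genes tested, 7226 were higher in the low range and 7151 in the high range. In the propionyl-CoA genes, which dispose of the end of odd chains, 6 of 6 were above 0 (median 0.12), where 48.8% of all genes were. Of these 6, 2 were higher in the low range and 6 in the high range. Mmab among them, a cobalamin enzyme, had the highest log2 fold change of the 35 pathway genes at 0.53, with a 95% interval from -0.11 to 1.17 (edgeR, adjusted p = 0.993) and differences of -0.091 in the low and 0.95 in the high range. It ranged from 0.33 without S155A replicate 3, where Cpt1b at 0.52 was above it, to 0.71 without S155A replicate 1, and was 0.34 without S155A replicate 2.

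Among the regulators, Plin5 itself was the only gene under an unadjusted threshold of 0.05, 1 of 10, where 3.40% of all genes were. Plin5 did not pass after adjustment (edgeR, adjusted p = 0.993). It was at 206 ± 32.3 CPM in WT and 328 ± 118 CPM in S155A mice (SD, n = 4 each), a log2 fold change of 0.67, and the mice of both genotypes overlapped. Ppara was at 96.3 ± 13.2 CPM in WT and 93.3 ± 5.48 CPM in S155A mice, a log2 fold change of -0.046 that was 0.050 without WT replicate 1. Ppargc1a, the coactivator of PPARa, was low and spread out, at 5.54 to 14.2 CPM in WT mice and at 6.08 to 29.5 CPM in S155A mice. Its log2 fold change was 0.35, or -0.51 without S155A replicate 4, which held the 29.5 CPM. Sirt1, a deacetylase that acts on this coactivator, was at a log2 fold change of -0.15 (95% interval -0.53 to 0.23), the lowest of the listed genes. Without WT replicate 4 it was -0.044, above Acad11 at -0.14. Of the 10 regulators, 8 were above 0 (median log2 fold change 0.13), where 48.8% of all genes were.

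**Figure D5:**
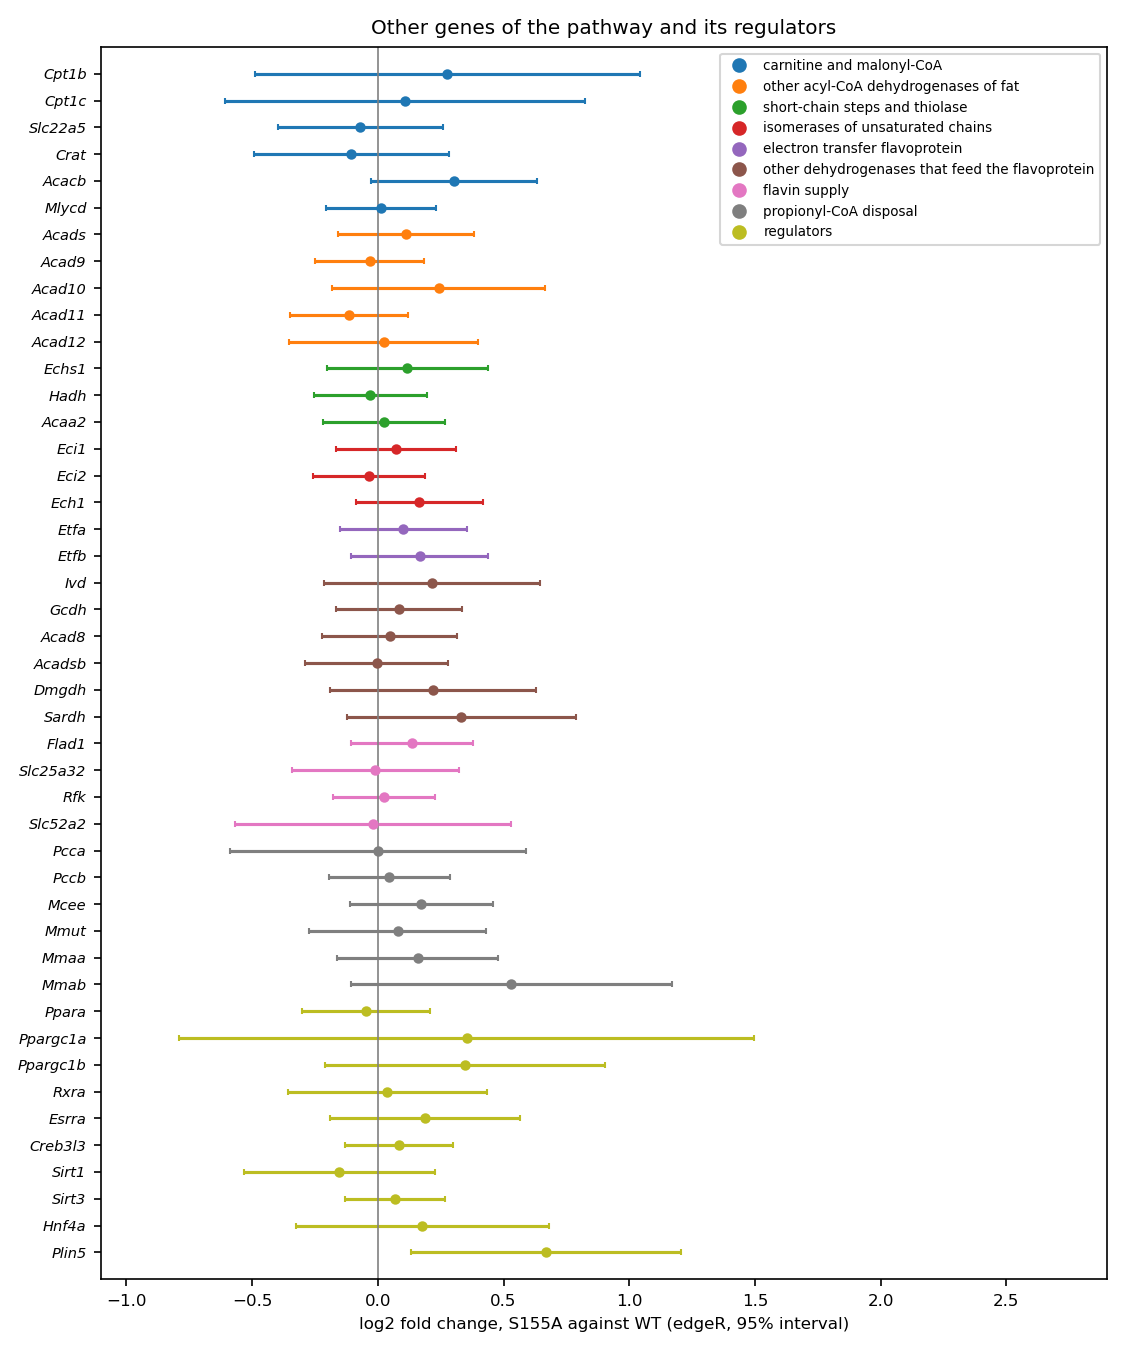
Log2 fold change of S155A against WT mice with its 95% interval from edgeR on the horizontal axis for 35 further genes of the pathway and 10 regulators, coloured by group, with 4 mice per genotype. The interval of Plin5 is the only one of the 45 that leaves out 0, and no gene passes the adjusted threshold.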

How the data were processed

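Liver RNA of 8 female mice, 4 of each genotype, was sequenced as stranded mRNA libraries with 100 bp paired reads. The authors deposited estimated counts per gene, which the name of the table describes as salmon estimates scaled for transcript length, without scaling for library size. The submitters' processing notes name build GRCm38 and the tools bcl2fastq, STAR, SAMtools, MultiQC and DESeq2. The salmon version, the annotation release and the use of strand in counting are not given in the sources used here. Columns were matched to mice by the number in each label, and 0 columns of samples were left unused.

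Rounding made the estimated counts whole. filterByExpr kept 14629 of 45706 genes. After TMM scaling they were tested with edgeR (version 4.0.16, under R 4.3.3) by quasi-likelihood, with Benjamini-Hochberg adjustment over all of them and a threshold of 0.05. CPM used TMM-scaled library sizes, and log2 CPM a prior count of 2. Standard errors and 95% intervals were derived from the F statistic. DESeq2 1.42.0, limma-voom (limma 3.58.1), other scalings, filters and terms, and leaving out each mouse were alternatives. The functions were tested on simulated counts. Total counts ran from 39709830 to 54540612 per library, and no 2 libraries were copies (lowest chi-square 40.3 per gene, where sampling alone gives about 1).

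The genes, the lists, the 11 promoter motifs and the rule for named genes were chosen with earlier results of these data known. The rule took all 10 members, 16 listed genes of the pathway and its regulators fixed by name, the 3 listed genes with the highest and the 3 with the lowest log2 fold change, and the 5 genes outside the lists closest to the members in profile. 1 of these 5 is not reported here. Positions are from GENCODE M21 (GRCm38), which held 45143 of the identifiers. Promoter sequences are from RefSeq (GRCm38.p6), matched by symbol for 9 of 10 members; Decr1 had no entry.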

Additional observations from a re-analysis of the deposited data

Results flagged for a closer look

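In 110 groups of 4 mice (55 genes in each genotype), 9 had a mouse whose gap to the nearest other took a larger share of the group's range than Dixon's 95% critical value, where chance gives about 5.5. Of the oxidation genes, Acadvl was at 727.5 CPM in S155A replicate 3 against 872 to 887 CPM in the 3 other S155A mice, and Hadha at 585.6 CPM in the same mouse against 716 to 742 CPM. Acadm was at 844.3 CPM in S155A replicate 4 against 784 to 791 CPM. Among the other listed genes, Acaa2 was at 1448 CPM in S155A replicate 2 (others 1293 to 1318), Mcee at 36.35 CPM in S155A replicate 1 (others 44.98 to 46.29) and Ppargc1a at 29.46 CPM in S155A replicate 4 (others 6.08 to 8.21). In WT mice, Plin5 was at 253.7 CPM in replicate 1 (others 183 to 194), and in replicate 2 Sardh was at 1516 CPM (others 1030 to 1104) and Sirt3 at 108.6 CPM (others 97.3 to 97.5).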

How the results depend on the processing

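The number of the 10 oxidation genes called stayed at 0 under all 18 alternatives, with an adjusted p of at least 0.873. The number of the 45 pathway and regulator genes called stayed at 0, with at least 0.798. Of all genes tested, DESeq2 called 0.0411% and each other alternative 0, so few genes of any kind were called. The interaction with the number range called 0 of 10 under 7 alternatives, with an adjusted p of at least 0.244. It called 0% of all genes in the main fit, and that share was not computed for these alternatives. The median log2 fold change of the 10 genes stayed within the spread between mice (0.097), from -0.0058 to 0.052 with 1 mouse left out and from 0.0024 to 0.041 under the other alternatives. With library size alone, where the median of all genes was -0.042, Acadm (-0.013), Mlycd (-0.023) and Acaa2 (-0.013) changed sign. Leaving out 1 mouse at a time gave log2 fold changes from -0.049 to 0.13 for Cpt1a, -0.12 to 0.0065 for Slc25a20, -0.0046 to 0.14 for Cpt2, -0.0085 to 0.096 for Acadl, -0.012 to 0.084 for Acadm, -0.047 to 0.11 for Hadhb, -0.14 to 0.025 for Etfdh and -0.10 to 0.015 for Decr1, all of which changed sign, whereas Acadvl (0.051 to 0.16) and Hadha (0.026 to 0.15) did not. Of the other named genes, the ranges that changed sign were -0.11 to 0.050 for Ppara, -0.032 to 0.071 for Mlycd, -0.066 to 0.0087 for Hadh, -0.028 to 0.097 for Acaa2, -0.20 to 0.025 for Slc22a5, -0.21 to 0.036 for Crat, -0.51 to 0.59 for Ppargc1a and -0.048 to 0.52 for Cpt1b. The difference in log2 ratio of Hadha to Hadhb ran from 0.011 to 0.081. Replicate numbers are shared between genotypes, but same-numbered mice did not all deviate together (correlation over genes from -0.11 to 0.17), and S155A replicates 3 and 4 were closest to WT replicates 2 and 3. With the replicate block no call changed: 0 of 10 genes were called with a median of 0.036, and the paired difference in log2 ratio was 0.036 (exact permutation test, p = 0.25, smallest possible 0.125). Per length, the longest transcript in place of all exons moved Cpt1a to 395, Slc25a20 to 152, Cpt2 to 251, Acadl to 361, Acadm to 736, Hadha to 318, Hadhb to 170.3 and Etfdh to 228 while Acadvl and Decr1 moved by less than their SD. DESeq2 called 6 of all genes tested and edgeR 0. The cause of these changes was not tested.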
